A study of Mus musculus with 24 samples.

Results

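The genes described here are 35 mouse genes for protein folding in the endoplasmic reticulum (ER), for the unfolded protein response (UPR) and for ER-associated degradation (ERAD). They were taken by name from a count table of 54532 Ensembl genes, in which each of the 35 has 1 identifier. Messenger RNA was measured by polyA-selected RNA sequencing in mouse peritoneal macrophages in 24 libraries, 4 in each of 6 groups. The groups were M1 cells (LPS and IFN-γ) with ONX-0914 and without it, M2 cells (IL4) with ONX-0914 and without it, and unpolarized control cells (M0) with ONX-0914 and without it. ONX-0914 is a small molecule that inhibits PSMB8 (LMP7), a catalytic subunit of the immunoproteasome. Each library holds 50000 cells pooled from 2 to 3 mice, per the labels, and the 4 replicates of a group are stated to be independent. The sources used here give no dose, treatment time, strain, age or genotype.

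Secreted and membrane proteins enter the ER through the SEC61 translocon and are folded there by the chaperones BiP (Hspa5) and GRP94 (Hsp90b1), by protein disulfide isomerases and by the lectin chaperones calreticulin and calnexin. Proteins that do not fold are recognized by lectins such as EDEM and OS9, passed back to the cytosol through the SYVN1-SEL1L ubiquitin ligase complex, extracted by the ATPase p97 and degraded by the proteasome. Load in the ER lumen is sensed by IRE1α (Ern1), ATF6 and PERK. IRE1α splices Xbp1 mRNA and cleaved ATF6 enters the nucleus, and both factors raise folding and ERAD genes, many through the ER stress response element (ERSE) in their promoters. PERK acts through ATF4.

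The markers that define macrophages (Adgre1, Csf1r, Cd68, Itgam, Lyz2, Fcer1g and Mertk) were all present in every group, with a summed level of 9922 to 15366 CPM. CPM, counts scaled to the TMM-corrected size of the library, is the unit of every level below. Total counts per library ran from 18230924 to 22882972. One library, M1 replicate 2, differed from its group: mitochondrial genes held 0.300% of its counts against 1.07% to 1.14% in the other M1 libraries, and its 10 most counted genes held 13.1% against 10.3% to 10.4%. The calls that change without it are gathered after the inhibitor comparisons. Of 11 B cell markers, 9 were tested, and with ONX-0914 8 fell in M1, 8 in M2 and 9 in M0. Their summed level was 40.0 to 43.2 CPM in M1 with ONX-0914 against 74.8 to 89.4 in M1, 59.7 to 66.6 in M2 with ONX-0914 against 109 to 118 in M2, and 60.4 to 66.1 in M0 with ONX-0914 against 101 to 106 in M0. Cd22 made up most of it, at 85.6 CPM in M0. Of the 7 macrophage markers, 0 rose and 5 fell in M1, 0 and 5 in M2, and 1 and 3 in M0. Of all tested genes, 16.6% rose and 27.7% fell with ONX-0914 in M1, 17.6% and 18.8% in M2, and 9.54% and 11.4% in M0. Plasma cells, which are rich in ER, are defined by Jchain and Mzb1, and these averaged at most 0.24 and 0.86 CPM in any group. All 10 plasma cell markers together summed to 258 to 315 CPM in M1 with ONX-0914 against 306 to 373 in M1, 497 to 579.8 in M2 with ONX-0914 against 618 to 657 in M2, and 531 to 601 in M0 with ONX-0914 against 705 to 816 in M0, most of it Sdc1 at 707 CPM in M0. Of the 7 of them tested, 3, 4 and 3 fell with ONX-0914 in M1, M2 and M0, and 0, 1 and 0 rose. The 9 markers of mesothelial cells and fibroblasts, all tested, were the most abundant of the other cell types and summed to 740.0 to 838 CPM in M1 with ONX-0914 against 734 to 918 in M1, 721 to 848 in M2 with ONX-0914 against 631 to 779.7 in M2, and 863 to 1005 in M0 with ONX-0914 against 724 to 936 in M0. With ONX-0914 0 rose and 2 fell in M1, 1 rose and 1 fell in M2, and 0 changed in M0. Without inhibitor 2 were higher and 4 lower in M1 than in M0, and 1 higher and 3 lower in M2 than in M0. The part of these cell types and of macrophage share in the results below was not tested. In pooled libraries such as these, fewer cells of a type and less RNA per cell cannot be told apart. Psmb8 averaged 248 ± 11.1 CPM in M1 with ONX-0914 and 372 ± 44.8 in M1, 41.6 ± 3.43 in M2 with ONX-0914 and 49.5 ± 2.34 in M2, and 41.7 ± 1.97 in M0 with ONX-0914 and 52.0 ± 3.54 in M0 (SD, n = 4 each). ONX-0914 acts on the protein, so this transcript does not check the labels of the inhibitor.

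The ERSE, written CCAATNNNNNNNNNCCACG, was searched on both strands of the RefSeq promoter windows of build GRCm38.p6, which run from 250 bases before to 50 bases after each transcription start. Only exact matches of the fixed letters were counted, so a window counted as lacking the element can hold a near match. Windows were present for 29 of the 35 genes, and 9 of the 29 (31.03%) held the element, against 37 of all 27025 genes with a window (0.1369%). The 10 sites of these 9 genes are shown because the genes below are described with and without them. They are written 5′ to 3′ on the strand that reads as the element, with its fixed letters in capitals.
Hspa5: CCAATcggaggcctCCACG
Hsp90b1: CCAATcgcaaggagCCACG
Hsp90b1: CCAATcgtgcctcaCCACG
Dnajc3: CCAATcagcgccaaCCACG
Pdia6: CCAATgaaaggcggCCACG
Creld2: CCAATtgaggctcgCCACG
Calr: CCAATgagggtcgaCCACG
Canx: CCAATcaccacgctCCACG
Syvn1: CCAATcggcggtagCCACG
Derl3: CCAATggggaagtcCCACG
In the same order, the sites lie at chr2:34772025-34772043 on the plus strand, chr10:86705638-86705656 on the minus strand, chr10:86705533-86705551 on the plus strand, chr14:118937827-118937845 on the plus strand, chr12:17266491-17266509 on the plus strand, chr15:88819520-88819538 on the minus strand, chr8:84847075-84847093 on the plus strand, chr11:50325800-50325818 on the minus strand, chr19:6046532-6046550 on the plus strand and chr10:75893242-75893260 on the minus strand. A second form of the element, ERSE-II (ATTGGNCCACG), was present in 12 of the 27025 genes (0.0444%), and 2 of them are among the 29. Its site in Herpud1 is at chr8:94386377-94386387 on the plus strand, and its site in Dnajb11 at chr16:22857852-22857862 on the plus strand.
Herpud1: ATTGGgCCACG
Dnajb11: ATTGGcCCACG
The whole windows of Hspa5 (chr2:34771840-34772139, plus strand) and Herpud1 (chr8:94386179-94386478, plus strand) are shown because these were the 2 genes that fell with ONX-0914 in M0 and rose with it in M1. Capitals mark the fixed letters of the ERSE in Hspa5 and the whole ERSE-II in Herpud1.
Hspa5: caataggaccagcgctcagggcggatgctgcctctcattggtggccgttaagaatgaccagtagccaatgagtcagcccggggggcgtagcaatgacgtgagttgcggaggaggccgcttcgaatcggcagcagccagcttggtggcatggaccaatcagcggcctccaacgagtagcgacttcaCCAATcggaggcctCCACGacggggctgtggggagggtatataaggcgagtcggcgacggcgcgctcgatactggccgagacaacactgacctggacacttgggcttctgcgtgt
Herpud1: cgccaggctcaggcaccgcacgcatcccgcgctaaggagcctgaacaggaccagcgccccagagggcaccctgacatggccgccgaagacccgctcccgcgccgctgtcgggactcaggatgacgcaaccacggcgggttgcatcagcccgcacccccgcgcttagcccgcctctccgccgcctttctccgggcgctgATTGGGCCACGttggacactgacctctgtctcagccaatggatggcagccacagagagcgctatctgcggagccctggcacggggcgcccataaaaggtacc
A match of letters is a description of the window and no measurement of a factor bound there. Of the 28 other genes with an ERSE in their window, 10 were expressed enough to be tested. Of these 10, 1 was called higher and 1 lower with ONX-0914 in M1, 1 and 0 in M2, and 1 and 0 in M0. For all tested genes the shares were 16.6% and 27.7% in M1, 17.6% and 18.8% in M2, and 9.54% and 11.4% in M0. The gene called higher in each state was Alg12, a mannosyltransferase of N-glycan assembly in the ER. The 1 called lower in M1 was Adcy3 (log2 change -0.64).

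Of the 35 genes, 34 passed the filter on low counts and were tested among 14692 genes. The exception was Derl3, a derlin of the ERAD machinery, whose group means were 0.0824 to 0.275 CPM. The threshold for a call was an adjusted p under 0.05 in edgeR's quasi-likelihood test (Benjamini-Hochberg, over all tested genes). With ONX-0914 in M1, 11 of the 34 rose and 11 fell, against 16.6% and 27.7% of all tested genes. With ONX-0914 in M2, 5 rose and 10 fell, against 17.6% and 18.8% of all genes. With ONX-0914 in M0, 0 rose and 14 fell, against 9.54% and 11.4%. At an unadjusted p under 0.05 the count of rises in M0 was 1, and the adjusted count was 0 by the DESeq2 Wald test and 3 by limma voom. Between states without inhibitor, M1 against M0 had 10 higher and 18 lower (34.6% and 34.2% of all genes), and M2 against M0 had 16 higher and 3 lower (18.7% and 17.5%). M1 against M2 had 6 higher and 18 lower (32.2% and 34.4%). The median log2 change of the 34 with ONX-0914 was 0.05 in M1, 0.01 in M2 and -0.11 in M0, where the medians of all genes were -0.08, -0.0012 and -0.00082. For M1 against M0, M2 against M0 and M1 against M2 it was -0.22, 0.15 and -0.27, where those of all genes were -0.02, 0.0057 and -0.04. Groups that do not overlap, with all 4 libraries of one above or below all 4 of the other, were counted as a description. All 4 libraries with ONX-0914 were above the 4 without it for 8 genes in M1, 6 in M2 and 1 in M0, against 13.9%, 18.7% and 12.3% of all tested genes, and all 4 were below for 10, 11 and 16, against 22.2%, 20.5% and 14.5%. Between states without inhibitor, all 4 were higher for 7 genes and lower for 16 in M1 against M0 (29.3% and 28.9% of all genes), for 17 and 3 in M2 against M0 (20.1% and 17.7%) and for 4 and 17 in M1 against M2 (27.5% and 29.3%).

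**Figure D1:**
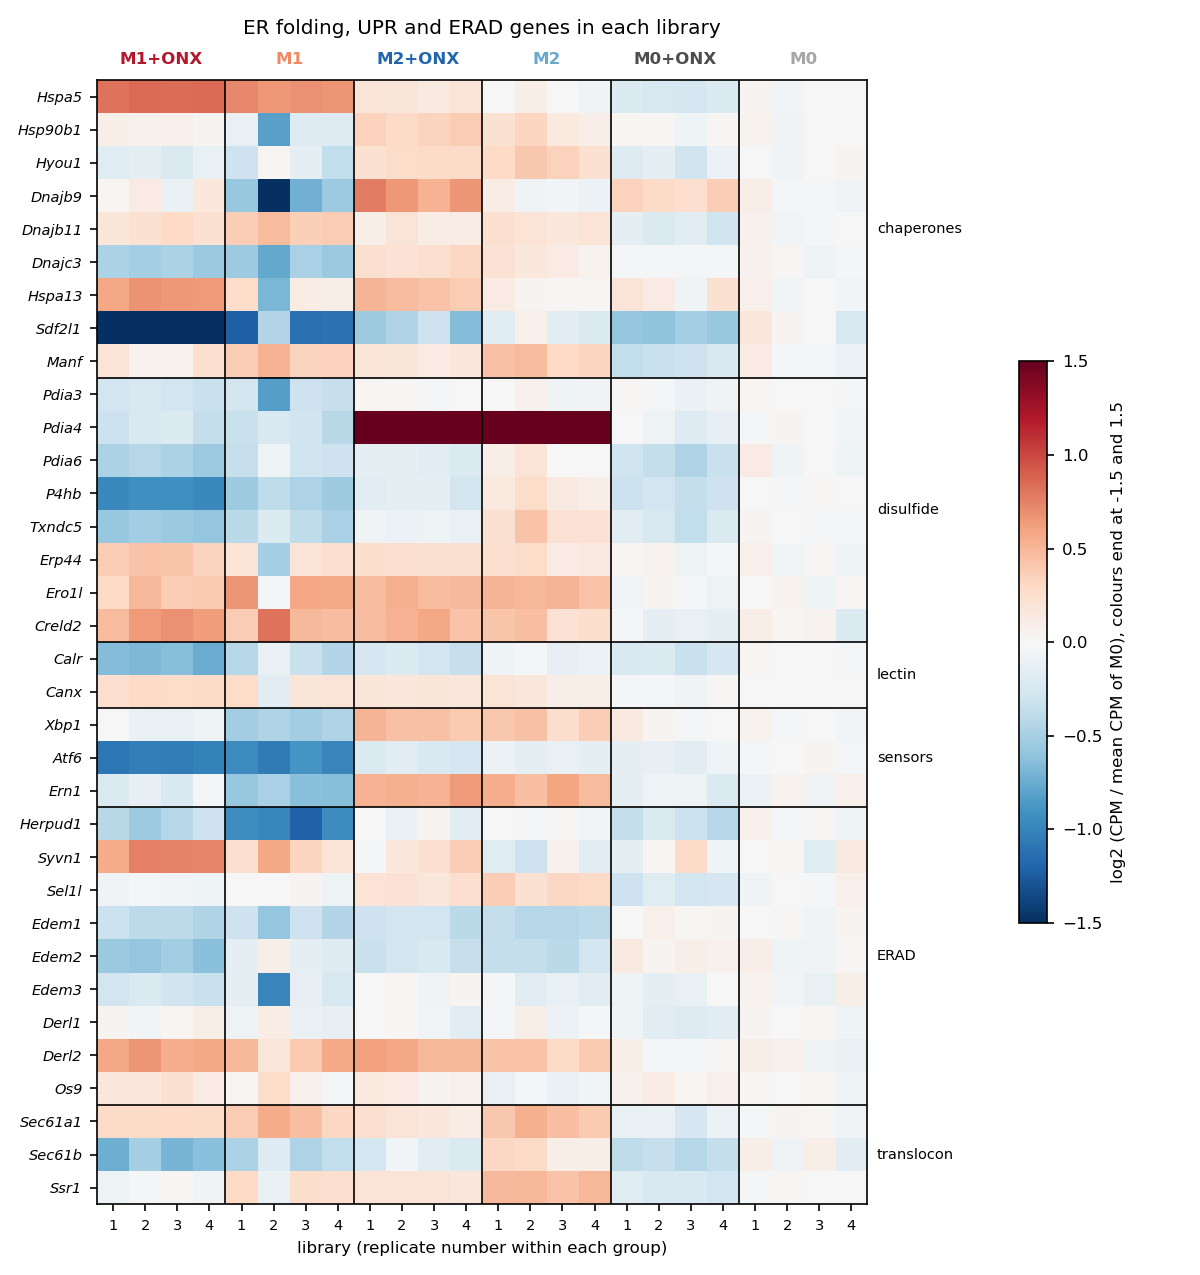
Level of each of the 34 tested genes (rows, grouped by role) in each of the 24 libraries (columns), as log2 of CPM over the gene's mean CPM in M0. Pdia4 was high in the 8 M2 libraries, Hspa5 in the 8 M1 libraries, and M1 replicate 2 differed from its group in Dnajb9, Edem3 and Sdf2l1.

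Among the 9 chaperones and cochaperones of the ER lumen, Hspa5, Hsp90b1, Dnajb9 and Hspa13 rose with ONX-0914 in M1, while Sdf2l1, Manf and Dnajb11 fell. Hspa5 encodes BiP, the HSP70 chaperone of the ER that also holds the stress sensors inactive (ENSMUSG00000026864, chr2:34771970-34777547, plus strand). It read 982, 1004, 995 and 1007 CPM in M1 with ONX-0914 against 915, 878, 893 and 879.9 CPM in M1. The M2 libraries read 635, 635, 611 and 639.7 CPM in M2 with ONX-0914 against 554, 596, 555 and 538 CPM in M2, and the unpolarized ones 485, 470.3, 469 and 482 CPM in M0 with ONX-0914 against 573, 542, 559 and 557 CPM in M0. All libraries with ONX-0914 were above those without it in M1 and in M2, and all were below in M0. The log2 change with ONX-0914 was 0.16 ± 0.04 (SE; edgeR adjusted p = 0.0021) in M1, 0.17 ± 0.04 (SE; edgeR adjusted p = 0.0019) in M2 and -0.23 ± 0.04 (SE; edgeR adjusted p = 0.00019) in M0. The difference of these effects was 0.39 ± 0.06 (SE; edgeR adjusted p = 1.8e-05) between M1 and M0, 0.39 ± 0.06 (edgeR adjusted p = 7.5e-05) between M2 and M0 and -0.01 ± 0.06 (edgeR adjusted p = 0.97) between M1 and M2. Without inhibitor, Hspa5 was 0.68 higher on the log2 scale in M1 than in M0 (edgeR adjusted p = 2.6e-14), with no overlap of libraries, while M2 and M0 overlapped (0.01, edgeR adjusted p = 0.9).

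Dnajb9 encodes ERdj4, a J-domain cochaperone of BiP and a known target of XBP1 (ENSMUSG00000014905, chr12:44205559-44210326, minus strand). Its libraries read 40.0, 42.6, 36.5 and 43.6 CPM in M1 with ONX-0914 against 26.4, 12.3, 23.9 and 26.8 CPM in M1, 66.9, 61.3, 56.2 and 62.0 CPM in M2 with ONX-0914 against 42.3, 37.9, 38.1 and 37.0 CPM in M2, and 49.6, 47.9, 46.6 and 50.6 CPM in M0 with ONX-0914 against 42.1, 38.5, 38.4 and 37.6 CPM in M0. All 4 libraries with ONX-0914 were above all 4 without it in each state. The log2 change was 0.86 ± 0.13 (SE; edgeR adjusted p = 3.7e-06) in M1, 0.67 ± 0.12 (SE; edgeR adjusted p = 6.1e-05) in M2 and 0.31 ± 0.12 (SE; edgeR adjusted p = 0.062) in M0, which missed the threshold. Without M1 replicate 2, whose level was the lowest of the M1 libraries, it was 0.66 in M1 and passed the threshold in M0 (0.31, edgeR adjusted p = 0.00011). Without inhibitor the log2 change of M1 against M0 was -0.80 (edgeR adjusted p = 3.0e-06).

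Hspa13, an HSP70-like ATPase of microsomes, read 75.3, 80.7, 79.0 and 78.3 CPM in M1 with ONX-0914 against 60.9, 31.4, 54.5 and 53.8 CPM in M1, and 72.0, 70.3, 67.6 and 65.5 CPM in M2 with ONX-0914 against 54.9, 51.8, 51.2 and 50.8 CPM in M2. In M0 it read 57.8, 54.9, 48.7 and 59.3 CPM in M0 with ONX-0914 against 53.3, 49.2, 50.1 and 49.2 CPM in M0. The groups with and without ONX-0914 did not overlap in M1 or M2 and overlapped in M0. Its log2 change was 0.64 ± 0.11 (SE; edgeR adjusted p = 2.4e-05) in M1, 0.47 without M1 replicate 2, 0.40 ± 0.11 (SE; edgeR adjusted p = 0.0043) in M2 and 0.13 ± 0.11 (SE; edgeR adjusted p = 0.44) in M0, and the effect in M1 exceeded that in M0 by 0.51 ± 0.15 (edgeR adjusted p = 0.019). Hsp90b1, which encodes the HSP90 of the ER, averaged 384 ± 4.12 CPM in M1 with ONX-0914 and 297 ± 59.8 CPM in M1 (SD, n = 4 each). Its rise in M1 was 0.37 ± 0.09 (SE; edgeR adjusted p = 0.0011), and 0.23 without M1 replicate 2, a library at 209 CPM where the other 3 read 320.1 to 339.9 CPM.

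Sdf2l1 encodes a partner of the cochaperone ERdj3 and is a known ER stress gene (ENSMUSG00000022769, chr16:17130138-17132383, minus strand). It showed the deepest falls of the 34 genes with ONX-0914 in M1 and in M0. The values were 11.9, 16.2, 16.1 and 15.2 CPM in M1 with ONX-0914 against 22.9, 39.5, 24.7 and 24.8 CPM in M1, 36.9, 39.1, 43.3 and 34.0 CPM in M2 with ONX-0914 against 47.4, 56.5, 48.1 and 45.9 CPM in M2, and 36.0, 35.1, 38.0 and 36.0 CPM in M0 with ONX-0914 against 60.2, 55.2, 53.4 and 45.5 CPM in M0. All 4 libraries with the inhibitor were below all 4 without it in each state, and M1 replicate 2 was the highest M1 library. The log2 change was -0.91 ± 0.14 (SE; edgeR adjusted p = 3.3e-06) in M1, -0.71 without M1 replicate 2, -0.37 ± 0.12 (SE; edgeR adjusted p = 0.017) in M2 and -0.56 ± 0.12 (SE; edgeR adjusted p = 0.0011) in M0. The call in M2 was lost without M2 replicate 2 (-0.29) or replicate 4 of M2 with ONX-0914 (-0.32). M1 itself was -0.94 against M0 (edgeR adjusted p = 1.5e-07), so that its mean over the 6 groups ran from 14.8 CPM in M1 with ONX-0914 to 53.6 CPM in M0.

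The other chaperone genes moved less. Manf, a secreted ER stress factor that binds BiP, had log2 changes of -0.26, -0.22 and -0.31 with ONX-0914 in M1, M2 and M0, all called, and was 0.40 and 0.39 higher in M1 and in M2 than in M0. Dnajb11, which encodes ERdj3, fell by 0.16 in M1 and 0.21 in M0 with ONX-0914 and was -0.08 in M2, not called. Its level was higher in M1 (0.40) and M2 (0.20) than in M0. Hyou1, the nucleotide exchange factor GRP170 of BiP, was called with ONX-0914 in M0 alone (-0.18 ± 0.06 (edgeR adjusted p = 0.0496)), a call that was lost when any 1 of 19 libraries was left out. Dnajc3, which encodes p58IPK, was called with the inhibitor in no state with all 24 libraries, was called in M2 without M1 replicate 2 (0.12, edgeR adjusted p = 0.019) and was -0.59 ± 0.05 (edgeR adjusted p = 1.4e-10) in M1 against M0.

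**Figure D2:**
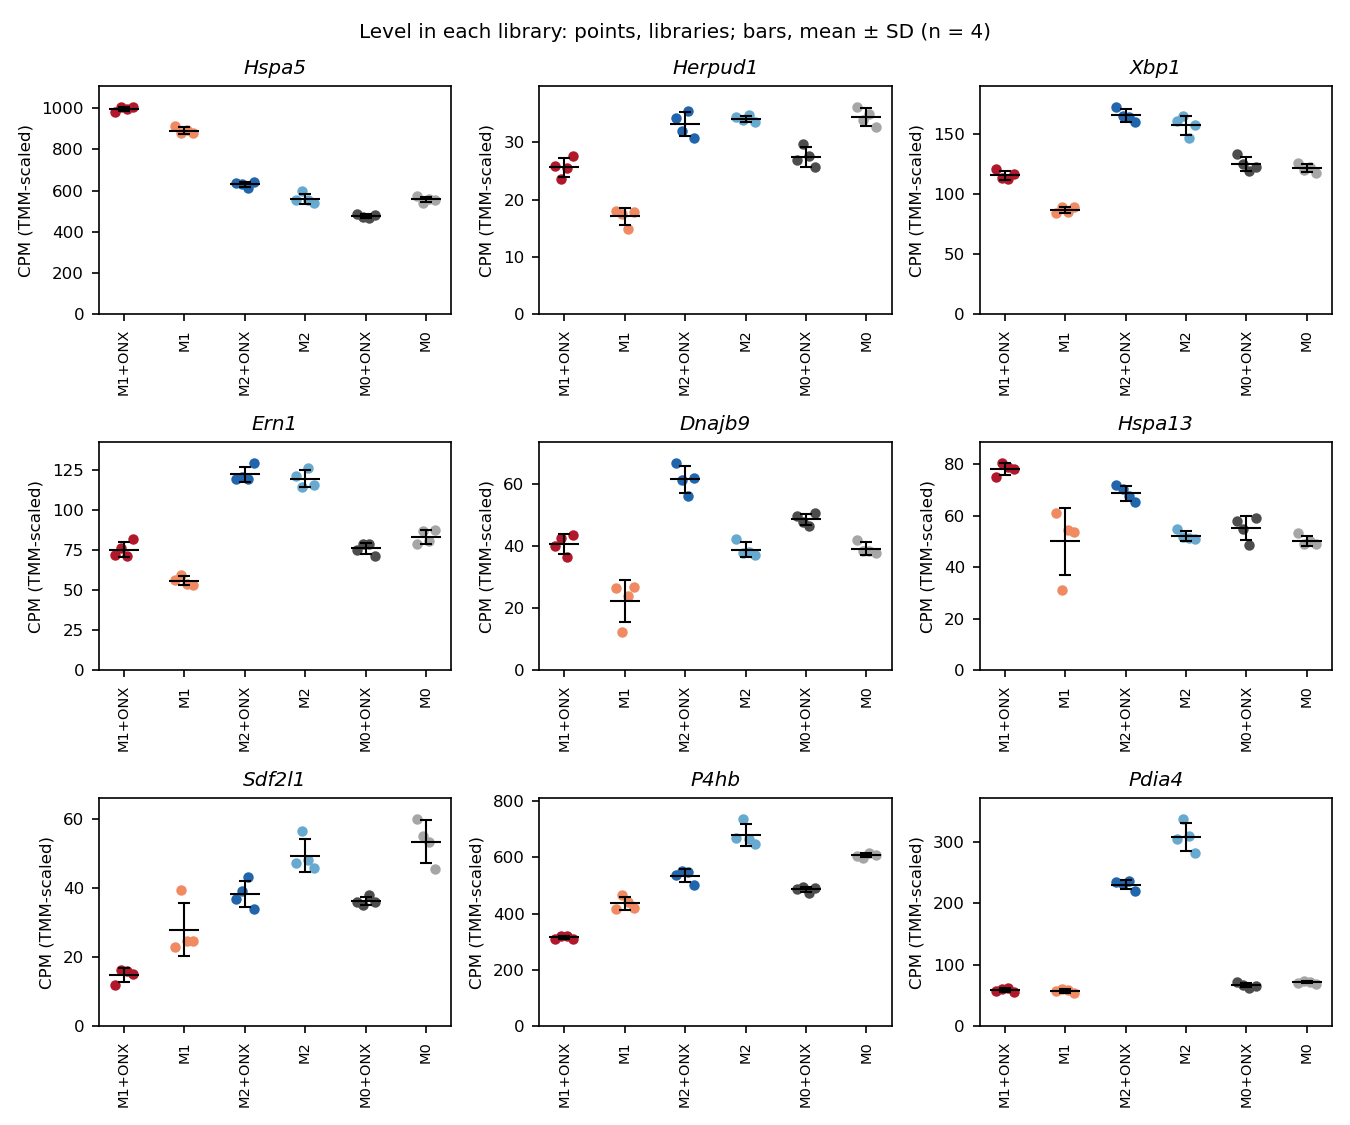
CPM of 9 genes in each library (points), with the mean and SD of each group of 4 (bars). Hspa5 and Herpud1 were lower with ONX-0914 in M0 and higher with it in M1, Xbp1 and Ern1 were higher with it in M1, P4hb was lower with it in all 3 states, and Pdia4 was at 231 and 309 CPM in the M2 groups and at 57.4 to 71.5 CPM in the other 4.

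Among the 8 genes of disulfide formation, Pdia6, P4hb and Txndc5 fell with ONX-0914 in M1, M2 and M0, Pdia4 fell in M2, and Erp44 rose in M1. P4hb encodes PDI, the main protein disulfide isomerase (ENSMUSG00000025130, chr11:120560298-120573253, minus strand). Its values were 310.4, 319.8, 321 and 310.3 CPM in M1 with ONX-0914 against 418, 465, 442 and 419.9 CPM in M1, 538, 551, 546 and 501 CPM in M2 with ONX-0914 against 669, 737, 664 and 649 CPM in M2, and 486, 495, 472 and 490.4 CPM in M0 with ONX-0914 against 604, 598, 615 and 609.5 CPM in M0. The groups with and without the inhibitor did not overlap in any state. The log2 change was -0.47 ± 0.05 (SE; edgeR adjusted p = 7.3e-09) in M1, -0.35 ± 0.05 (SE; edgeR adjusted p = 1.4e-06) in M2 and -0.32 ± 0.05 (SE; edgeR adjusted p = 1.4e-05) in M0, and the effects did not differ between states by more than 0.15 (edgeR adjusted p = 0.13 for M1 minus M0). M1 was -0.48 and M2 0.16 against M0, both called, and that in M2 was not called without M2 replicate 2 (0.11).

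Pdia4 encodes ERp72, a PDI with 3 active sites known as a UPR target, and it set M2 apart from all other groups (ENSMUSG00000025823, chr6:47796141-47813430, minus strand). It read 234, 231, 237 and 220.0 CPM in M2 with ONX-0914, 305, 338, 309.7 and 282 CPM in M2 and 70.9, 73.7, 72.0 and 69.6 CPM in M0. M1 read 56.8, 61.1, 58.3 and 53.5 CPM. The M2 level was above every M0 and M1 library, with a log2 change of 2.11 ± 0.06 (SE; edgeR adjusted p = 8.7e-21) against M0, the largest change of the 34 genes in any comparison with M0, and M1 against M2 gave -2.43 ± 0.06 (edgeR adjusted p = 2.2e-23). With ONX-0914 the log2 change of Pdia4 in M2 was -0.42 ± 0.05 (SE; edgeR adjusted p = 6.9e-07), without overlap. In M1 and M0 the change was 0.04 and -0.09 and was not called, and the effect differed between M2 and M0 by -0.33 ± 0.08 (edgeR adjusted p = 0.011) and between M1 and M2 by 0.46 ± 0.08 (edgeR adjusted p = 0.0002).

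Pdia6 (P5), a PDI known to act on IRE1α, read 157, 152, 141 and 154 CPM in M0 with ONX-0914 against 212, 186, 194 and 186 CPM in M0, with no overlap and a log2 change of -0.36 ± 0.06 (SE; edgeR adjusted p = 7.4e-05). Its changes in M1 and M2 were -0.23 and -0.24. Txndc5 (ERp46) read 113, 110.2, 111 and 108 CPM in M2 with ONX-0914 against 137, 157, 136 and 135 CPM in M2, again without overlap, and changed by -0.35 ± 0.06 (SE; edgeR adjusted p = 1.6e-05), while in M1 and M0 it changed by -0.19 and -0.24. Erp44 retains ERO1 oxidases in the early secretory pathway. It averaged 81.2 ± 2.22 CPM in M1 with ONX-0914 and 64.9 ± 14.4 CPM in M1 (SD, n = 4 each), a log2 change of 0.32 ± 0.09 (SE; edgeR adjusted p = 0.0068) that was 0.17 without M1 replicate 2.

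Ero1l, the oxidase that recharges PDI, was not called with ONX-0914 in any state and differed between states. It read 98.4, 61.0, 93.2 and 91.7 CPM in M1, 88.0, 87.6, 88.3 and 83.8 CPM in M2 and 61.9, 64.3, 59.5 and 62.6 CPM in M0. M2 lay above M0 without overlap (0.49 ± 0.09 (SE; edgeR adjusted p = 4.4e-05)), and M1 did so in 3 of 4 libraries (0.47 ± 0.09 (SE; edgeR adjusted p = 2.1e-05)). Without M1 replicate 2, Ero1l was lower with ONX-0914 in M1 (-0.22). Creld2, an ER protein with disulfide isomerase activity, read 25.8, 34.9, 27.8 and 27.4 CPM in M1, 26.6, 27.2, 23.1 and 23.8 CPM in M2 and 21.3, 20.3, 20.6 and 17.3 CPM in M0. M1 and M2 were above M0 without overlap (0.54 ± 0.08 (SE; edgeR adjusted p = 2.4e-06) and 0.34 ± 0.08 (SE; edgeR adjusted p = 0.002)). Pdia3 (ERp57), the partner of calreticulin and calnexin, was lower in M1 than in M0 (-0.42 ± 0.07 (edgeR adjusted p = 1.2e-05)) and was not called with the inhibitor.

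The lectin chaperones moved apart in M1. Calr encodes calreticulin, the soluble one (ENSMUSG00000003814, chr8:84841850-84846934, minus strand), and read 517, 508, 519 and 485 CPM in M1 with ONX-0914 against 604, 753, 642 and 599 CPM in M1. The groups did not overlap, and the log2 change was -0.36 ± 0.06 (SE; edgeR adjusted p = 1.0e-05), against -0.20 in M2 and -0.26 in M0, all called. Canx encodes calnexin, the membrane-bound one, and read 519, 535, 529 and 529 CPM in M1 with ONX-0914 against 525, 390.2, 495 and 498 CPM in M1. These groups overlapped, and its log2 change of 0.15 ± 0.06 (SE; edgeR adjusted p = 0.0484) was lost when any 1 of 21 libraries was left out, with a value of 0.06 without M1 replicate 2. In M2 and M0 Canx changed by 0.03 and -0.02, not called.

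The 2 genes of the IRE1α branch, Ern1 and Xbp1, had the same profile over the groups: lower in M1 than in M0, higher in M2 than in M0, and higher with ONX-0914 in M1 only among the 3 inhibitor comparisons. Ern1 (ENSMUSG00000020715, chr11:106394650-106487852, minus strand) read 71.8, 76.3, 71.2 and 81.7 CPM in M1 with ONX-0914, 56.4, 59.7, 53.9 and 53.4 CPM in M1, 119, 121, 119 and 129 CPM in M2 with ONX-0914, 121, 114, 126 and 116 CPM in M2, 75.2, 78.8, 78.7 and 71.5 CPM in M0 with ONX-0914 and 78.7, 86.6, 80.5 and 87.6 CPM in M0. All 4 M1 libraries were below every other library, and M1 with ONX-0914 overlapped with both M0 groups. The log2 change with ONX-0914 was 0.43 ± 0.06 (SE; edgeR adjusted p = 5.9e-07) in M1, 0.03 ± 0.05 (SE; edgeR adjusted p = 0.68) in M2 and -0.13 ± 0.06 (SE; edgeR adjusted p = 0.096) in M0. The effect in M1 exceeded that in M0 by 0.56 ± 0.08 (edgeR adjusted p = 8.9e-06) and that in M2 by 0.40 ± 0.08 (edgeR adjusted p = 0.0008). Against M0, Ern1 was -0.58 in M1 and 0.52 in M2 (edgeR adjusted p = 6.7e-10 and 1.8e-08).

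Xbp1 (ENSMUSG00000020484, chr11:5520659-5525893, plus strand) read 121, 113, 112 and 117 CPM in M1 with ONX-0914 against 84.4, 89.0, 84.9 and 88.8 CPM in M1, 173, 165, 164 and 159.6 CPM in M2 with ONX-0914 against 161, 165, 146 and 157 CPM in M2, and 133, 125, 119.5 and 122 CPM in M0 with ONX-0914 against 126, 120.3, 122 and 118 CPM in M0. M1 libraries with ONX-0914 were all above those without it, and the groups overlapped in M2 and M0. Its log2 change was 0.41 ± 0.05 (SE; edgeR adjusted p = 7.5e-08) in M1, 0.07 ± 0.05 (SE; edgeR adjusted p = 0.25) in M2 and 0.04 ± 0.05 (SE; edgeR adjusted p = 0.62) in M0, with a difference of 0.38 ± 0.07 (edgeR adjusted p = 0.0002) between M1 and M0. These counts are of the whole gene, so spliced and unspliced Xbp1 mRNA cannot be told apart. Atf6 differed from both: it read 85.7, 80.1, 90.4 and 83.6 CPM in M1 and 164, 166, 171 and 165 CPM in M0, without overlap, a log2 change of -0.97 ± 0.04 (SE; edgeR adjusted p = 3.2e-17). It was called with ONX-0914 in M0 alone (-0.12 ± 0.04 (edgeR adjusted p = 0.04)), where the groups did not overlap but the call was lost when any 1 of 8 libraries was left out, and its changes in M1 and M2 were -0.08 and -0.09. Without M1 replicate 2 it was called lower in all 3 states (-0.10 in M1, -0.0911 in M2 and -0.12 in M0). M1 libraries shared by the comparisons with M0 and with M1 plus ONX-0914 enter the 2 comparisons with opposite signs. The changes of any gene in them, such as the opposite ones of Ern1, Xbp1, Dnajb9 and Herpud1, are therefore not independent of each other. M2 libraries are shared in the same way by the comparisons with M0 and with M2 plus ONX-0914.

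Of the 9 tested ERAD genes, Herpud1, Syvn1 and Derl2 rose with ONX-0914 in M1 and Edem2 fell, Syvn1 and Os9 rose in M2, and Herpud1 and Sel1l fell in M0. Herpud1 encodes HERP, a membrane protein that gathers the ligase complex (ENSMUSG00000031770, chr8:94386438-94395377, plus strand). It read 25.8, 23.6, 25.5 and 27.7 CPM in M1 with ONX-0914 against 18.1, 17.4, 14.8 and 17.9 CPM in M1, 34.3, 32.0, 35.4 and 30.8 CPM in M2 with ONX-0914 against 34.4, 33.8, 34.7 and 33.5 CPM in M2, and 26.8, 29.6, 27.6 and 25.7 CPM in M0 with ONX-0914 against 36.2, 33.9, 34.9 and 32.6 CPM in M0. Libraries with the inhibitor were all higher in M1, overlapped with those without it in M2, and were all lower in M0. The log2 change was 0.59 ± 0.07 (SE; edgeR adjusted p = 1.2e-07) in M1, -0.04 ± 0.07 (SE; edgeR adjusted p = 0.66) in M2 and -0.33 ± 0.07 (SE; edgeR adjusted p = 0.00059) in M0. The effect in M1 exceeded that in M0 by 0.92 ± 0.10 (edgeR adjusted p = 9.9e-08), the largest difference of effects of the 34 genes, and that in M2 by 0.63 ± 0.10 (edgeR adjusted p = 3.6e-05). Without inhibitor M1 was lower than M0 (-1.01 ± 0.07 (edgeR adjusted p = 3.8e-13)), and M2 and M0 overlapped (-0.01).

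Syvn1 encodes HRD1, the ubiquitin ligase of the complex, and read 61.3, 70.0, 69.7 and 68.9 CPM in M1 with ONX-0914 against 49.2, 62.2, 52.0 and 48.0 CPM in M1, and 41.0, 46.5, 49.2 and 53.9 CPM in M2 with ONX-0914 against 36.7, 33.6, 43.5 and 37.0 CPM in M2. Both pairs of groups overlapped by 1 library, and the log2 changes were 0.35 ± 0.10 (SE; edgeR adjusted p = 0.0042) and 0.33 ± 0.10 (SE; edgeR adjusted p = 0.0086). In M0 the change was 0.04 ± 0.10 (edgeR adjusted p = 0.84). Sel1l, its cofactor, fell in M0, with 215, 235, 218 and 223 CPM in M0 with ONX-0914 against 254, 267, 262 and 281 CPM in M0, no overlap and a log2 change of -0.26 ± 0.04 (SE; edgeR adjusted p = 0.00013). In M1 and M2 Sel1l changed by -0.04 and -0.09, not called.

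The 3 EDEM genes, whose products trim mannose from glycoproteins bound for degradation, did not move together. Edem2 read 84.3, 82.4, 86.0 and 80.0 CPM in M1 with ONX-0914 against 111, 131, 113 and 108 CPM in M1, all lower, with a log2 change of -0.48 ± 0.06 (SE; edgeR adjusted p = 9.1e-08). It read 96.6, 96.2, 93.3 and 102 CPM in M2 and 133, 118, 119 and 125 CPM in M0, and the changes with ONX-0914 there were 0.05 and 0.09, not called. The effect in M1 was below that in M0 by a difference of -0.56 ± 0.08 (edgeR adjusted p = 7.5e-06) and below that in M2 by one of -0.53 ± 0.08 (edgeR adjusted p = 3.0e-05). Edem1 was not called with the inhibitor in any state and was lower in both polarized states, with 262, 218, 264 and 240.2 CPM in M1, 254, 242, 243 and 247 CPM in M2 and 325, 329.9, 313 and 336 CPM in M0. No M1 or M2 library reached the M0 range, and the log2 changes were -0.40 ± 0.05 (SE; edgeR adjusted p = 1.2e-07) and -0.40 ± 0.05 (SE; edgeR adjusted p = 5.5e-07). With all 24 libraries Edem3 was called in M1 against M0 alone (-0.33 ± 0.10 (edgeR adjusted p = 0.006)), where M1 replicate 2 was lowest at 36.9 CPM. Without that library this change was -0.17, and Edem3 was also called with ONX-0914 in M2 (0.12, edgeR adjusted p = 0.038) and in M2 against M0 (-0.12, edgeR adjusted p = 0.046).

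The derlins form part of the channel back to the cytosol. Derl2 was higher in M1 and M2 than in M0, with 100.2, 79.5, 93.1 and 105 CPM in M1, 95.5, 95.5, 86.2 and 92.8 CPM in M2 and 75.6, 74.2, 68.0 and 65.8 CPM in M0. The groups did not overlap with M0, and the log2 changes were 0.42 ± 0.07 (SE; edgeR adjusted p = 3.4e-06) and 0.38 ± 0.07 (SE; edgeR adjusted p = 3.2e-05). With ONX-0914 it rose by 0.18 in M1 (edgeR adjusted p = 0.029), a call that was lost without M1 replicate 2 (0.10), M1 replicate 3 (0.17) or replicate 2 of M1 with ONX-0914 (0.16), and changed by 0.16 in M2, just short of the threshold (edgeR adjusted p = 0.0502). Derl1 was called in none of the 6 pairwise comparisons with all 24 libraries, and without M1 replicate 2 it was called with ONX-0914 in M1 (0.13, edgeR adjusted p = 0.026) and in M0 (-0.15, edgeR adjusted p = 0.012). Os9, a lectin that delivers clients to SEL1L, rose with ONX-0914 in M2 (0.16 ± 0.05 (edgeR adjusted p = 0.018)) without overlap, and was not called without M2 replicate 1, M2 replicate 3 or replicate 1 of M2 with ONX-0914 (0.15 in each).

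The 3 translocon genes fell with ONX-0914 in M1 and M2, and 2 of them in M0. Sec61b, the β subunit of the channel, read 27.9, 33.0, 28.7 and 30.1 CPM in M1 with ONX-0914 against 33.4, 40.7, 33.7 and 35.9 CPM in M1, 38.7, 45.2, 41.3 and 40.2 CPM in M2 with ONX-0914 against 57.5, 56.7, 49.3 and 49.5 CPM in M2, and 35.7, 36.5, 34.5 and 36.3 CPM in M0 with ONX-0914 against 49.3, 45.02, 49.99 and 41.7 CPM in M0. No library with the inhibitor reached the range without it in any state, and the log2 changes were -0.26 ± 0.08 (SE; edgeR adjusted p = 0.0062), -0.37 ± 0.07 (SE; edgeR adjusted p = 0.00021) and -0.38 ± 0.07 (SE; edgeR adjusted p = 0.00039). Ssr1, the α subunit of the translocon-associated TRAP complex, changed by -0.22, -0.28 and -0.23, all called. It read 208, 210.1, 199 and 209 CPM in M2 against 146, 151, 148 and 148 CPM in M0, without overlap, a log2 change of 0.48 ± 0.06 (SE; edgeR adjusted p = 2.2e-07). Sec61a1, the pore subunit, changed by -0.14 and -0.27 in M1 and M2, called, and by -0.14 in M0, not called. The call in M1 was lost when any 1 of 6 M1 libraries was left out, at -0.14 to -0.09. It was higher in M1 (164, 186, 173 and 156 CPM) and in M2 (167, 183, 174 and 166 CPM) than in M0 (125, 131, 128 and 122 CPM), without overlap, by 0.42 and 0.45.

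**Figure D3:**
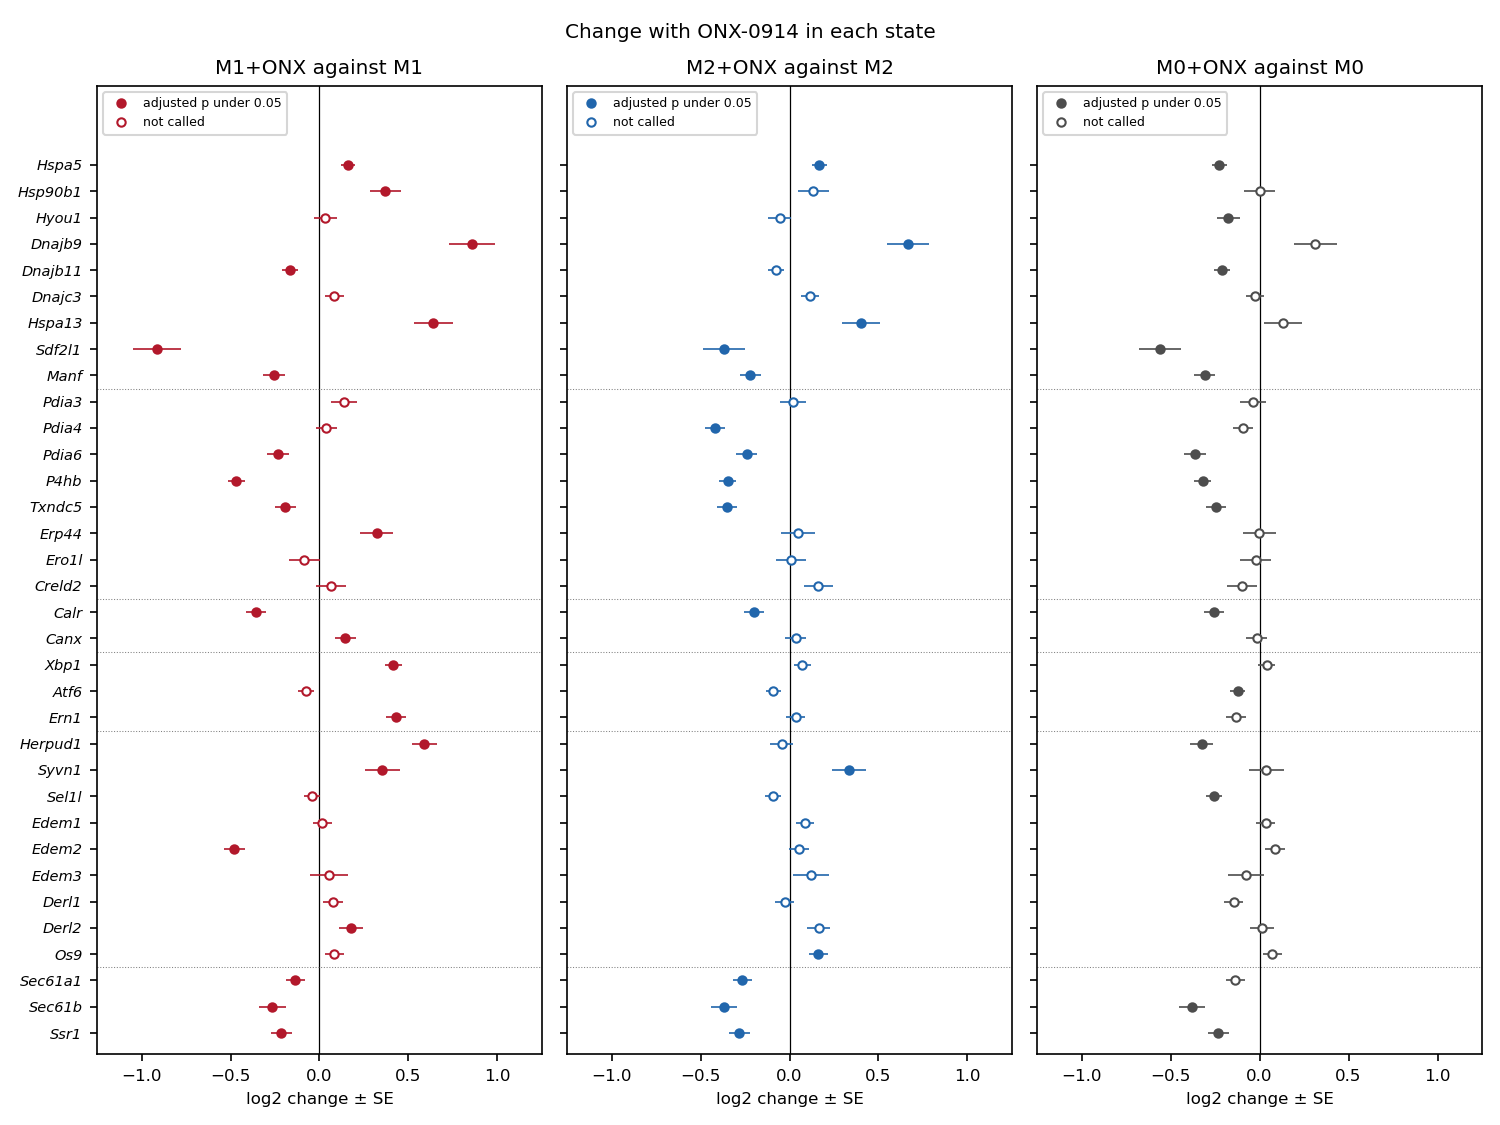
Log2 change with ONX-0914 (x axis, bars are SE) of the 34 genes in M1, M2 and M0, filled where the edgeR adjusted p was under 0.05. Filled points lie on both sides of 0 in M1 and M2 and on the lower side alone in M0.

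Patterns across the 3 inhibitor comparisons, which share no libraries, were counted for the 34 genes only. The shares of all tested genes with each pattern were not counted, so these counts have no background. In the single states 27.7% (M1), 18.8% (M2) and 11.4% (M0) of all tested genes fell. Of the 34, 8 genes fell in every state: Sdf2l1, Manf, Pdia6, P4hb, Txndc5, Calr, Sec61b and Ssr1. Among these 8, P4hb and Calr alone were called lower in all 3 states under every alternative fit described below. Another 7 were called in none of the 3 (Dnajc3, Pdia3, Ero1l, Creld2, Edem1, Edem3 and Derl1), and of these Dnajc3, Ero1l, Edem3 and Derl1 were called in at least 1 state without M1 replicate 2. Dnajb9, Hspa13 and Syvn1 rose in M1 and in M2, and Hsp90b1, Erp44, Canx, Xbp1, Ern1 and Derl2 were called higher in M1 and not in the other states. A call in one state and not in another is no test of a difference, and the differences of effects were tested directly. The effect of ONX-0914 was higher in M1 than in M0 for 9 of the 34 (Hspa5, Hsp90b1, Dnajb9, Hspa13, Xbp1, Ern1, Herpud1, Sel1l and Derl1) and lower for 1 (Edem2), against 6.9% and 12.4% of all genes. When single libraries were left out, the call was lost for Derl1 in 15 cases, for Hsp90b1 in 9 and for Dnajb9 in 4, with values of 0.20 to 0.23, 0.35 to 0.38 and 0.51 to 0.53. Without M1 replicate 2 the difference was 0.23 for Hsp90b1 and 0.35 for Dnajb9, both still called. It was higher in M2 than in M0 for Hspa5 and lower for Pdia4, against 3.44% and 2.74% of all genes. It was higher in M1 than in M2 for Pdia4, Xbp1, Ern1 and Herpud1 and lower for Sdf2l1 and Edem2, against 3.8% and 9.68%. That of Sdf2l1 was lost in 15 of 24 cases and was -0.34 without M1 replicate 2.

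When M1 replicate 2 was left out, the fit called 11 rises and 12 falls with ONX-0914 in M1, 9 and 11 in M2, and 1 and 17 in M0. That refit also changes the estimate of spread for all genes. Over all genes the calls for the difference M2 minus M0 became more numerous as well. The refit's shares of all tested genes are not set beside the counts of this paragraph. In M1, the rises of Derl1 (0.13) and Os9 (0.15) and the falls of Ero1l (-0.22) and Atf6 (-0.10) were gained, and Canx, Derl2 and Sec61a1 were lost. In M2, Hsp90b1 (0.13), Dnajc3 (0.12), Edem3 (0.12) and Derl2 (0.16) were gained as rises and Atf6 as a fall. In M0, Dnajb9 (0.31) was gained as a rise, and Ern1 (-0.13), Derl1 (-0.15) and Sec61a1 (-0.14) as falls. The M2 and M0 values themselves, in which that library has no part, moved by at most 0.0014 on the log2 scale. M1 against M0 then had 12 higher and 19 lower, with Hspa13 (0.16), Erp44 (0.22) and Edem2 (-0.16) gained, while Hsp90b1 was -0.17 and Canx 0.22, against -0.30 and 0.13 with all libraries. M2 against M0 had 19 higher and 4 lower, with Hsp90b1 (0.20), Erp44 (0.19), Canx (0.14) and Edem3 (-0.12) gained. M1 against M2 had 5 higher and 18 lower, with Ero1l (0.12) gained and Creld2 and Os9 lost. For the differences of effects, M1 minus M0 gained Hyou1 (0.28), Pdia6 (0.20), Erp44 (0.17), Syvn1 (0.40) and Ero1l (-0.19), M2 minus M0 gained Dnajb9 (0.35), Hspa13 (0.27) and Herpud1 (0.28), and M1 minus M2 gained Txndc5 (0.22), Ero1l (-0.22) and Edem3 (-0.23) and lost Sdf2l1.

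Small changes in M1 also differed between the fit of all libraries and that of the M1 libraries alone. With all 24 libraries the median log2 change of all genes with ONX-0914 in M1 was -0.08 and 37.4% of the calls were rises, and with only the 8 M1 libraries it was 0.01 and 51.9%. In that fit 10 of the genes rose and 4 fell. The 4 were Sdf2l1, P4hb, Calr and Edem2, and the falls of Manf, Dnajb11, Pdia6, Txndc5, Sec61a1, Sec61b and Ssr1 in M1 were not called there. With M1 replicate 2 also left out, that fit had 16 rises and 6 falls. It differs from the fit of all libraries in scaling, in the genes kept and in the estimate of spread, and the part of each was not tested. Of all 33 settings run for ONX-0914 in M1, those 4 falls and the rises of Hspa5, Hsp90b1, Dnajb9, Hspa13, Xbp1, Ern1, Herpud1 and Syvn1 were called in every one. In M2, 4 rises (Hspa5, Dnajb9, Hspa13 and Syvn1) and 9 falls were called in all 32 settings, and in M0, 12 falls.

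Between the states without inhibitor, the genes moved in different directions. Of all tested genes, 18.7% were higher in M2 than in M0. Of the 34, 16 were higher, among them all 3 translocon genes, 5 of the 8 disulfide genes and Xbp1 and Ern1. Of these, Sec61b was not called without M0 replicate 2 or 4 or M2 replicate 1 or 2 (0.15 to 0.18). The call of Dnajc3 was lost when any 1 of 6 libraries was left out (0.11 to 0.15), and that of P4hb without M2 replicate 2 (0.11). M1 was lower than M0 for 34.2% of all tested genes and higher for 34.6%. Of the 34, M1 was lower for 18, among them Ern1, Xbp1 and Atf6 and 5 of the 8 disulfide genes. It was higher for 10, among them Hspa5, Manf, Dnajb11, Creld2 and Ero1l. The higher call of Canx was lost when any 1 of 23 libraries was left out (0.08 to 0.13). The lower call of Hyou1 was lost without M1 replicate 1 or 4 (-0.15 to -0.14). M1 and M2 were compared with the same M0 libraries.

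**Figure D4:**
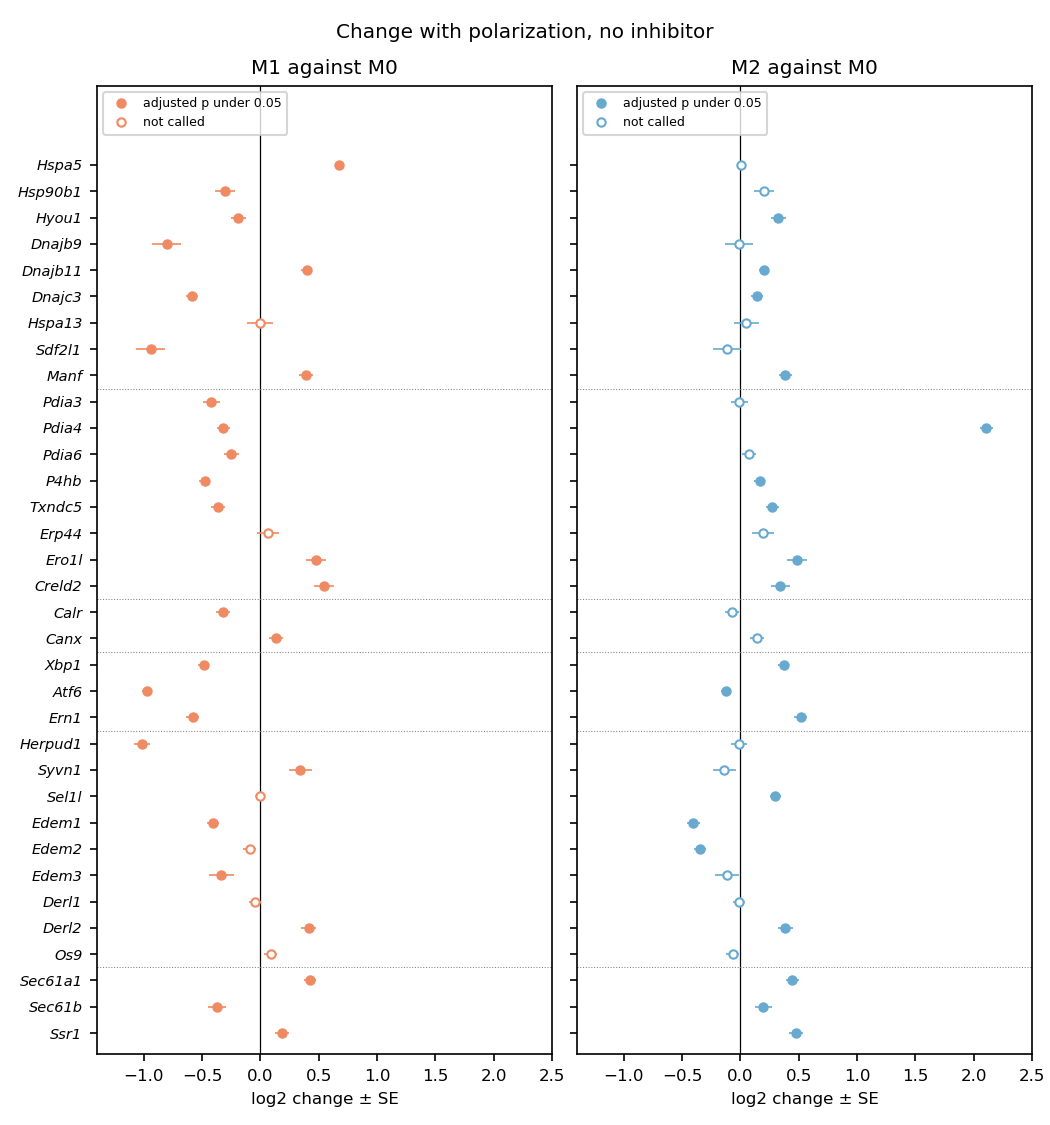
Log2 change (x axis, bars are SE) of the 34 genes in M1 against M0 and in M2 against M0, filled where the edgeR adjusted p was under 0.05. Atf6, Herpud1 and Sdf2l1 were lowest in M1 against M0, and Pdia4 (2.11) was highest in M2 against M0.

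Genes with and without an exact ERSE in the window were set side by side as a description. Of all tested genes, 16.6% rose and 27.7% fell with ONX-0914 in M1, 17.6% and 18.8% in M2, and 9.54% and 11.4% in M0. The counts below are of few genes, and the sets were not tested against each other or against these shares. Of the 8 tested genes with the element, 4 rose and 2 fell with ONX-0914 in M1, 2 rose and 2 fell in M2, and 0 rose and 3 fell in M0. Of the 20 with a window and no ERSE, 6 rose and 7 fell in M1, 2 and 6 in M2, and 0 and 8 in M0. These 20 include Herpud1 and Dnajb11, which carry ERSE-II and changed by 0.59 and -0.16 in M1. Of the 6 without a window, 1 rose and 2 fell in M1, 1 and 2 in M2, and 0 and 3 in M0. Genes with an exact ERSE and genes with a window that lacks one moved in each direction in M1: Hspa5 and Calr carry the element and changed by 0.16 and -0.36. Near matches were not searched for.

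Other genes of the same pathways were counted from lists. The shares of all tested genes that were called stand above: 16.6% higher and 27.7% lower with ONX-0914 in M1, 17.6% and 18.8% in M2, and 9.54% and 11.4% in M0. Of 32 tested ERAD genes outside the 35, ONX-0914 raised 12 and lowered 5 in M1, raised 11 and lowered 4 in M2, and raised 6 and lowered 3 in M0. The largest rises were of genes that serve p97, the ATPase that pulls substrates out of the membrane. Ufd1, a p97 cofactor, averaged 174 ± 9.28 CPM in M1 with ONX-0914 and 63.7 ± 4.5 in M1, 108 ± 3.37 in M2 with ONX-0914 and 45.9 ± 1.86 in M2, and 75.8 ± 0.184 in M0 with ONX-0914 and 43.3 ± 2.94 in M0 (SD, n = 4 each). Its log2 changes were 1.45, 1.24 and 0.81. Nploc4, its partner, rose by 1.17, 1.44 and 0.97, and Ubxn4, an ER membrane adaptor of p97, rose by 1.60 in M1 and 1.42 in M2. Ufd1 and Nploc4 rose by more in each state than any of the 34 genes did.

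Of 40 other folding enzymes and cochaperones, 11 rose and 14 fell with ONX-0914 in M1, 6 and 10 in M2, and 4 and 7 in M0. Sumf2, a paralog of the sulfatase-modifying enzyme, rose by 1.79, 1.78 and 1.14, and Erp29, a PDI-like protein without a redox site, fell by 0.84 in M1 and 0.55 in M2. Of 30 other genes for targeting, translocation, signal cleavage and N-glycosylation, 5 rose and 10 fell in M1, 6 and 15 in M2, and 2 and 12 in M0. Krtcap2, an oligosaccharyltransferase subunit, averaged 34.2 ± 2.99 CPM in M0 with ONX-0914 and 61.5 ± 8.53 in M0 (SD, n = 4 each), while Sec11c, a signal peptidase subunit, rose by 0.87, 0.81 and 0.49 in M1, M2 and M0. Of 30 genes for traffic between ER and Golgi, 10 rose and 2 fell in M1, 9 and 3 in M2, and 2 and 2 in M0, with Sec24d, a COPII coat subunit, at 1.01, 0.70 and 0.28.

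The PERK and ATF4 arm had 15 tested genes, of which 7 rose and 5 fell with ONX-0914 in M1, 1 rose and 8 fell in M2, and 1 rose and 9 fell in M0. The effect was higher in M1 than in M0 for 8 of the 15 and lower for 0, against 6.9% and 12.4% of all tested genes. Among the 8 were Chac1 (1.98 ± 0.18, SE), Trib3 (1.78 ± 0.14) and Sesn2 (1.46 ± 0.11). Of 19 other UPR regulators, 5 rose and 5 fell in M1, 7 and 1 in M2, and 3 and 2 in M0. In M2 against M0, Creb3l1, an ER-anchored transcription factor of the ATF6 type, averaged 21.6 ± 2.58 CPM in M2 and 6.97 ± 0.674 in M0 (SD, n = 4 each), a log2 change of 1.63, and 16 of the 30 targeting, translocation and N-glycosylation genes were higher and 0 lower (18.7% and 17.5% of all genes).

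**Figure D5:**
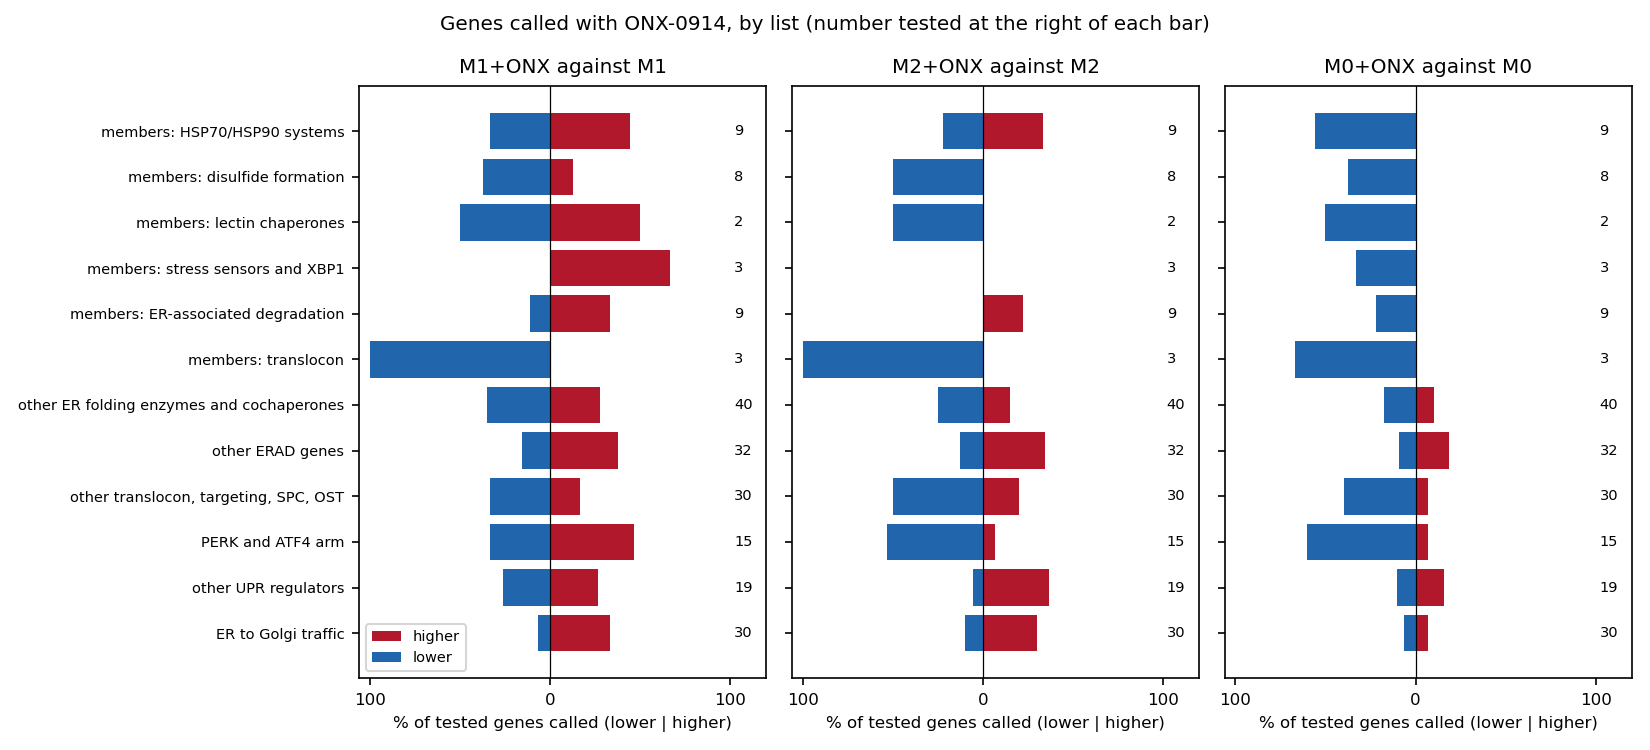
Share of the tested genes of each list called higher (right of 0) or lower (left of 0) with ONX-0914 in M1, M2 and M0, with the number tested at the right. In M0 the bars of the 6 member groups run to the left alone, and in M1 and M2 the ERAD bars run mostly to the right.

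Per kilobase of exon, the levels averaged over the 6 groups were highest for Calr (237 CPM per kb), P4hb (178), Hspa5 (162), Pdia3 (148) and Os9 (108), and lowest for Hspa13 (8.66) and Syvn1 (9.95) among the tested genes. The order of group means differed between genes. Hspa5 was highest in M1 with ONX-0914 and lowest in M0 with ONX-0914, 2.09 times apart. Pdia4 was highest in M2 and lowest in M1, 5.37 times apart, and Sdf2l1 highest in M0 and lowest in M1 with ONX-0914, 3.61 times apart.

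Exons of Dnajb9, Manf, Pdia3, Pdia6, Txndc5, Derl2, Syvn1, Hsp90b1 and Sec61a1 overlap an exon of a gene on the opposite strand in GENCODE M21, and those of Manf, Hsp90b1 and Pdia4 overlap exons on their own strand (Rbm15b, Gm15344 and Gm25745, and Mir704). The sources used here do not say whether counting used strand, so reads of such pairs cannot be told apart. Near-identical copies of Derl1 and Sec61b (Gm35638 and Gm10320) held counts equal to 0.916% and 0.223% of those of their parent gene.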

How the data were processed

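The authors deposited a table of raw, whole-number counts per Ensembl gene, with no normalization. The submitters' processing notes name FastQC 0.11.9, cutadapt 2.8, Bowtie2 2.2.5, Picard and the build mm10. The counting tool, its strand setting and the annotation are not named in the sources used here. Symbols and positions came from GENCODE M21 (GRCm38), which matched 54495 of 54532 identifiers. The 37 without a symbol held 0.00253% of the counts.

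The count model was edgeR 4.0.16 in R 4.3.3. filterByExpr kept 14692 genes with 99.927% of the counts. After TMM scaling, all 24 libraries entered one quasi-likelihood fit with the 6 groups as its terms (18 residual degrees of freedom), and p-values were adjusted by Benjamini-Hochberg over all kept genes in each of 9 comparisons, with a threshold of 0.05. Standard errors are the log2 change over the square root of F. The pipeline was tested on simulated data. Totals of 18230924 to 22882972 counts set the precision of low genes. Alternatives were DESeq2 1.42.0 size factors and its Wald test, limma 3.58.1 voom with quality weights, 2 other filters, the compared groups alone, a replicate block and leaving out each library. The compared groups alone without M1 replicate 2 were added later, with the data seen.

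The 35 genes and the lists were chosen with earlier results of these data known. Any of the 35 could be named, and library values are given for the 4 largest called rises and falls of each comparison between groups. From each other list up to 3 called genes with the largest change and at least 5 CPM could be named. Alg12 and Adcy3 were named after their values were seen. Promoter windows and their sequences are from RefSeq (GRCm38.p6).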

Additional observations from a re-analysis of the deposited data

Results flagged for a closer look

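Each gene was screened in each group of 4 libraries, 210 groups in all, for a library whose gap to its nearest neighbour as a share of the group's range was above Dixon's 95% critical value. Chance gives such a gap in about 1 in 20 groups, and 13 were found. M1 replicate 2 gave 7 of them. It was the lowest M1 library for Hsp90b1 (209 CPM, others 320.1 to 339.9), Pdia3 (283 CPM, others 396 to 415), Erp44 (43.4 CPM, others 70.8 to 73.7) and Ssr1 (139 CPM, others 176 to 182). It was the highest for Sdf2l1 (39.5 CPM, others 22.9 to 24.8), Pdia6 (186 CPM, others 153 to 158) and Derl1 (193 CPM, others 165 to 169). Replicate 3 of M0 with ONX-0914 was lowest for Hsp90b1 (352 CPM) and Sec61a1 (106 CPM), M2 replicate 2 was highest for Txndc5 (157 CPM), and M2 replicate 4 was lowest for Ero1l (83.8 CPM). Replicate 4 of M2 with ONX-0914 was highest for Ern1 (129 CPM), and replicate 1 of M1 with ONX-0914 was lowest for Syvn1 (61.3 CPM). M1 replicate 2 also had a mitochondrial share of 0.300%, and the part of RNA quality or of library preparation in its values was not tested.

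The effect of ONX-0914 differed between states, by the test of the difference itself, in 18 cases. Each of the 3 differences follows from the other 2, so a gene can be counted more than once. Of all tested genes, 6.9% were higher and 12.4% lower for M1 minus M0. These shares were 3.44% and 2.74% for M2 minus M0, and 3.8% and 9.68% for M1 minus M2. Between M1 and M0 the log2 difference was 0.92 for Herpud1, 0.56 for Ern1, 0.54 for Dnajb9, 0.51 for Hspa13, 0.39 for Hspa5, 0.38 for Xbp1, 0.37 for Hsp90b1, 0.22 for Derl1, 0.21 for Sel1l and -0.56 for Edem2. Without M1 replicate 2 it was 0.23 for Hsp90b1 and 0.35 for Dnajb9. Between M2 and M0 it was 0.39 for Hspa5 and -0.33 for Pdia4. Between M1 and M2 it was 0.63 for Herpud1, 0.46 for Pdia4, 0.40 for Ern1, 0.34 for Xbp1, -0.53 for Edem2 and -0.55 for Sdf2l1, which was -0.34 and not called without M1 replicate 2.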

How the results depend on the processing

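Of the 34 genes in 9 comparisons (306 values), 296 kept their call (higher, lower or none) with DESeq2 size factors and 298 with the DESeq2 Wald test. The call was kept by 285 with no filter, 298 with at least 1 CPM in 4 libraries, 276 with the compared groups alone and 262 with limma voom. The signs of values called in neither fit were not compared. The count of called genes moved by over 1.5 times in 3 comparisons. With ONX-0914 in M1 it was 14 (10 higher, 4 lower) with the groups alone instead of 22, and with ONX-0914 in M2 it was 23 under limma voom instead of 15. For the difference of effects between M2 and M0 it was 5 with the groups alone, 6 under limma voom and 5 without M1 replicate 2, instead of 2. Over all genes that last count was 907, and 1590, 1847 and 1672 under those settings, and with ONX-0914 in M0 it was 3079, and 4622 under limma voom. The share of rises among all calls moved with the groups alone to 55.7% from 35.8% (M1 minus M0), to 45.3% from 55.7% (M2 minus M0) and to 57.8% from 28.2% (M1 minus M2), the last being 39.2% with DESeq2 size factors.

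Leaving out each library in turn gave 19 to 23 called genes with ONX-0914 in M1, 14 to 20 in M2, 12 to 18 in M0, 26 to 31 for M1 against M0, 16 to 23 for M2 against M0 and 23 to 25 for M1 against M2, and 7 to 15, 2 to 5 and 5 to 8 for the differences M1 minus M0, M2 minus M0 and M1 minus M2. With the groups alone and without M1 replicate 2, the 22 called with ONX-0914 in M1 were 16 higher and 6 lower. Values that were not called and turned positive with a call were Hspa13 in M1 against M0 (0.17 under limma voom, -0.11 to 0.16 with single libraries left out, the highest without M1 replicate 2, and 0.14 with the groups alone as well), Ero1l in M1 against M2 (0.13, -0.0829 to 0.12 and 0.12) and Canx in M1 against M2 (0.0896 under limma voom). The cause was not tested.

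Replicate numbers are shared between groups, and whether they pair the libraries stayed undecided. Same-numbered libraries correlated at -0.0825 to 0.2 in their deviations, 6 of 60 pairs above 0.1, with no range for differently numbered pairs beside it. Of the 4 numbers, 10 of 24 libraries correlated best with their own, a count that was not compared with chance. A replicate block gave 22, 16 and 14 called genes with ONX-0914 in M1, M2 and M0, 27, 19 and 24 for the 3 comparisons of states and 10, 2 and 6 for the differences, and it changed 2 of 306 calls, Derl2 with ONX-0914 in M2 (0.16, now called) and Canx in M1 against M0 (0.13, no longer called).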

Other observations

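Of the 15 tested genes of the PERK and ATF4 arm, 13 were higher and 1 lower in M1 than in M0, and 12 higher and 2 lower in M2 than in M0, comparisons that share the M0 libraries. Of all tested genes, 34.6% were higher and 34.2% lower in M1 than in M0, and 18.7% higher and 17.5% lower in M2 than in M0, which is the background for the counts here. Nupr1, a stress-induced chromatin factor, averaged 57.5 ± 5.31 CPM in M1 and 10.1 ± 1.76 CPM in M0, and Ddit3, which encodes CHOP, averaged 72.8 ± 2.04 CPM in M2 and 33.8 ± 4.76 CPM in M0 (SD, n = 4 each). Of the 19 other UPR regulators, 10 were higher and 4 lower in M1 than in M0. Traf2, the adaptor that binds IRE1α, averaged 74.7 ± 6.5 CPM in M1 and 14.6 ± 0.404 CPM in M0, and Tmbim6, the ER membrane protein BI-1, averaged 1791 ± 142 CPM in M1 and 749 ± 16.9 CPM in M0 (SD, n = 4 each). Of the 30 genes for traffic between ER and Golgi, 17 were higher and 4 lower in M1 than in M0, and 15 higher and 1 lower in M2 than in M0, with Kdelr3, a receptor that returns ER proteins, at 6.55 ± 0.631 CPM in M2 and 3.07 ± 0.605 CPM in M0 (SD, n = 4 each).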
